A study of Mus musculus with 8 samples.

Results

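The subject is 10 mouse genes that make, clear and bind retinoic acid, picked by name from a table of 21692 genes measured in cultured forelimb buds. They were Rdh10, Dhrs3, Aldh1a1, Aldh1a2, Aldh1a3, Cyp26a1, Cyp26b1, Cyp26c1, Crabp1 and Crabp2, and all 10 were found in the table. Forelimb buds of CD1 mouse embryos were taken at gestation day 13 and cultured for 24 h. The 4 vehicle libraries are labelled DMSO (dimethyl sulfoxide, a solvent), and the 4 OPE libraries had a mixture of organophosphate esters patterned on house dust, at a dilution of 1 in 300000; their labels name no solvent. The esters are flame retardants and plasticisers; the labels list none of the compounds singly. A limb bud holds many cell types, so fewer cells of a type and less RNA per cell cannot be told apart in these bulk libraries. Nothing in the labels says whether the libraries of a group came from separate litters, so a p-value here rests on the spread among these libraries, which may be technical.

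Retinoic acid is a small lipid made from vitamin A that enters the nucleus and switches genes through receptors bound to DNA. Retinol is first oxidised to retinal, a step that runs in both directions, and retinal is then oxidised irreversibly to retinoic acid; enzymes of the CYP26 family destroy it. In the limb, synthesis lies near the body wall and later between the digits, Cyp26b1 keeps the distal bud clear of the signal, and persistent retinoic acid holds cartilage precursors back from maturing.

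The totals of reads counted to genes lay between 14986793 and 22006738 per library. Of the 10 genes, 8 passed the filter on low counts and were tested among the 15517 genes that did (edgeR's quasi-likelihood test, Benjamini-Hochberg adjustment over all genes tested); Aldh1a1 and Cyp26c1 did not. Levels in CPM are counts scaled to library size after edgeR's TMM factor had adjusted the size of each library. The tissue label was checked with limb markers. Tbx5, the forelimb T-box gene, lay between 268 and 321 CPM over all libraries. The hindlimb genes Pitx1 and Tbx4 lay between 2.53 and 4.44 CPM and between 21.1 and 28.6 CPM. The library OPE 3 stood apart by gene length. In it the 1187 tested genes of at most 1000 bases had a median log2 level 0.61 above the vehicle mean, against -0.12 to 0.10 in the other libraries, and the 5074 genes of at least 4000 bases had a median of -0.25.

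None of the 8 tested genes passed an adjusted p of 0.05 with edgeR, in either direction, where 0.477% of all genes tested did (74 genes: 6 higher, 0.0387%, and 68 lower, 0.438%; 151 higher and 171 lower once the gene length trend of each library was removed). At an unadjusted p under 0.05 there were 4 of the 8 (Aldh1a2, Dhrs3, Crabp1 and Cyp26a1), against 13.2% of all genes tested. With DESeq2 2 of the 8 passed, Aldh1a2 higher and Dhrs3 lower, against 3.45% of genes, and with limma-voom none did, against 0.651%. The authors' deposited table, in which 2.68% of the genes with an adjusted p were under 0.05, had 1 of the members there, Aldh1a2 (adjusted p = 0.0218). The fitted log2 fold change was above 0 in 3 and below 0 in 5 of the 8 genes (52.8% of all genes tested were above 0), and their median was -0.17 beside 0.01 for all genes tested. The sections that follow give the values gene by gene.

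**Figure D1:**
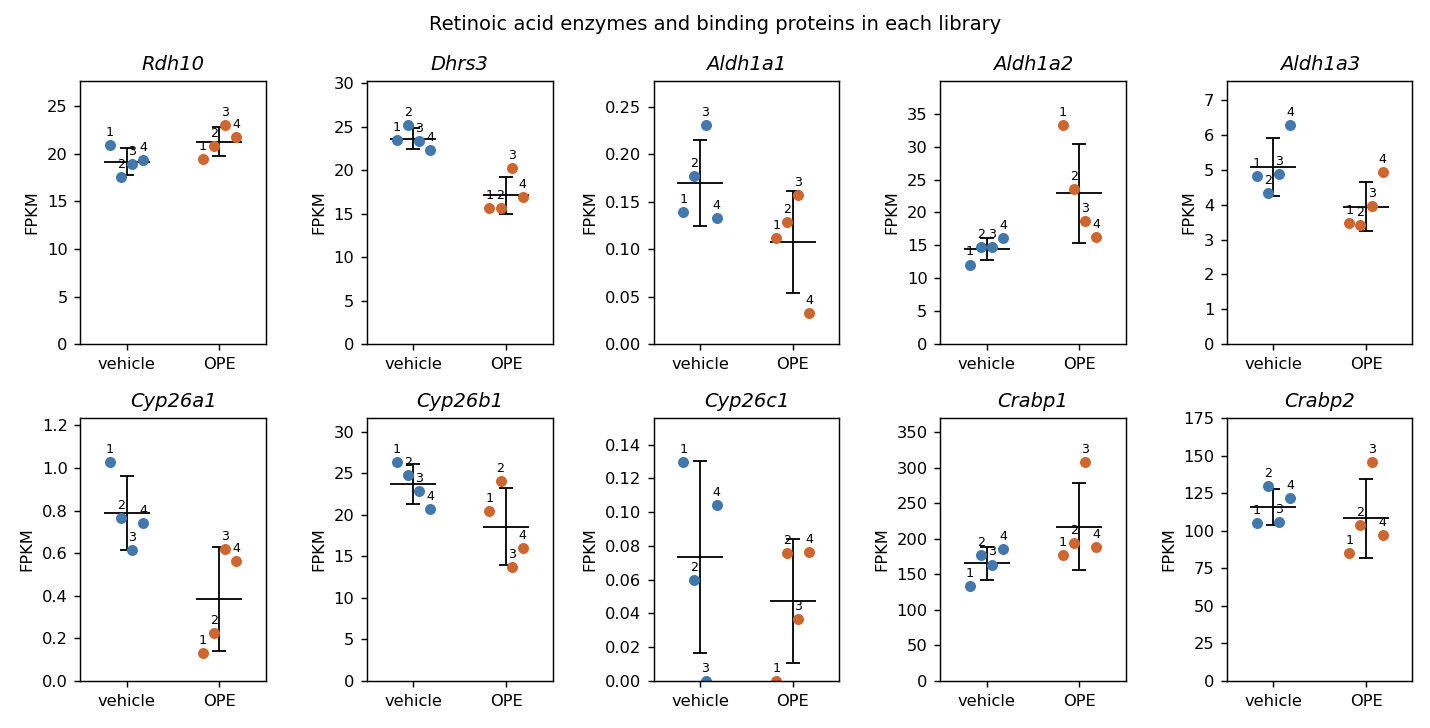
Level of each of the 10 genes in FPKM (scaled for gene length and library depth, as deposited) on axes that start at 0, with 1 point per library numbered by replicate, the mean as a horizontal line and the standard deviation as a bar (n = 4 a group). The 4 OPE points of Aldh1a2 lie above the 4 vehicle points, those of Dhrs3 lie below them, and OPE 3 is the highest point for Crabp1 and Crabp2.

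On a per-length scale the order of levels in the vehicle libraries was led by the binding proteins. Crabp1 averaged 166 ± 22.7 FPKM and Crabp2 116 ± 12 (SD, n = 4), at the 98.8th and 98.2nd percentile of all genes in the table. The enzymes followed far below: Cyp26b1 at 23.7 ± 2.45, Dhrs3 at 23.6 ± 1.22, Rdh10 at 19.2 ± 1.42 and Aldh1a2 at 14.4 ± 1.65 FPKM. The first of these, Cyp26b1 and Dhrs3, differed by less than their spread. Aldh1a3 stood at 5.09 ± 0.836 FPKM, Cyp26a1 at 0.788 ± 0.173, Aldh1a1 at 0.17 ± 0.0454 and Cyp26c1 at 0.0735 ± 0.0571. In each enzyme family 1 gene thus held most of the transcript.

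The reversible first step is run by Rdh10, the dehydrogenase that turns retinol into retinal and that embryos need for retinoic acid, and by Dhrs3, which reduces retinal back to retinol and is itself induced by retinoic acid. Dhrs3 (chromosome 4, 144892827 to 144928209, mm10) had 54.4, 57.7, 53.9 and 50.8 CPM in vehicle 1 to 4 and 36.7, 36.4, 50.9 and 39.5 CPM in OPE 1 to 4. OPE 1, 2 and 4 lay well below every vehicle library. OPE 3 lay level with vehicle 4, so the groups met at 1 point on this scale, which includes the TMM factors. On the deposited FPKM scale, without those factors, they did not meet, with 22.3 the lowest vehicle value and 20.2 the highest OPE value. The fitted log2 fold change was -0.41 ± 0.12 (SE), a level 0.754 times that of vehicle, with an edgeR adjusted p of 0.158. Without OPE 3 it was -0.53 ± 0.08 and Dhrs3 passed (edgeR adjusted p = 0.00916, where 1.95% of genes passed), and with DESeq2 on all 8 libraries the adjusted p was 0.0434. Without both OPE 1 and OPE 3 the edgeR adjusted p was 0.0323 (0.531% of genes passed). With library totals in place of the TMM factors, the log2 fold change of Dhrs3 was -0.46 ± 0.1 (edgeR adjusted p = 0.0711).

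Rdh10 (chromosome 1, 16105774 to 16133734) had 74.3, 61.3, 67.0 and 67.6 CPM in the vehicle libraries and 70.1, 74.4, 88.6 and 77.6 CPM in the OPE libraries. The groups overlapped through vehicle 1, which stood above OPE 1 and just under OPE 2. Its fitted log2 fold change was 0.20 ± 0.10 (edgeR adjusted p = 0.422), between 0.13 and 0.24 with 1 library left out. Set against each other within a library, the FPKM of Rdh10 over that of Dhrs3 was 0.891, 0.692, 0.809 and 0.868 in vehicle 1 to 4 and 1.24, 1.33, 1.13 and 1.28 in OPE 1 to 4. All 4 OPE ratios lay above 1 and all 4 vehicle ratios below it, a mean of 1.25 ± 0.0832 against 0.815 ± 0.0887 (SD, n = 4). The ratio was chosen after its values were seen and is given with no test. As background, 34.4% of all tested genes gave a ratio to Dhrs3 with every OPE library above every vehicle library.

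The committed step belongs to the retinaldehyde dehydrogenases Aldh1a1, Aldh1a2 and Aldh1a3; Aldh1a2 is the one on which the early embryo depends. Aldh1a2 (chromosome 9, 71215789 to 71296243) made 73.3 ± 2.6% of the summed FPKM of the 3 genes in the vehicle libraries and 83.9 ± 5.91% in the OPE libraries (SD, n = 4). Its level was 27.1, 32.6, 32.9 and 35.5 CPM in vehicle 1 to 4 and 75.7, 52.9, 45.5 and 36.9 CPM in OPE 1 to 4. Every OPE library stood above every vehicle library, OPE 1 by the widest margin and OPE 4 by a narrow one over vehicle 4; of all genes tested, 9.49% had groups that did not overlap and 4.05% had their OPE values entirely above. The mean went from 32.0 ± 3.51 to 52.7 ± 16.6 CPM (SD, n = 4), so the spread within the OPE group was several times that of the vehicle group. The log2 fold change was 0.72 ± 0.19, 1.65 times the vehicle level, with an edgeR adjusted p of 0.128. DESeq2 gave 0.72 ± 0.21 with an adjusted p of 0.0204, the setting in which Aldh1a2 passed. Without OPE 1 the edgeR value was 0.49 ± 0.14 (adjusted p = 0.225), and without OPE 4 it was 0.86 ± 0.17 (adjusted p = 0.0511).

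Aldh1a3 (chromosome 7, 66390892 to 66427517), the family member best known from the eye and nose, lay the other way. It had 16.5, 14.6, 16.6 and 21.1 CPM with vehicle and 12, 11.7, 14.7 and 16.9 CPM with OPE. The groups overlapped, since OPE 3 and OPE 4 reached vehicle values. Its log2 fold change was -0.32 ± 0.16 (edgeR adjusted p = 0.427). Aldh1a1 (chromosome 19, 20601961 to 20643462), which works in the dorsal eye and the adult liver among other places, was close to the limit of detection with 28 reads over the vehicle libraries and 15 over the OPE libraries. The ratio of its depth-scaled reads was 0.657, with an exact 95% binomial interval of 0.326 to 1.27 that covers counting error only, and a difference could not be detected with so few reads. The summed FPKM of the 3 genes was 19.7 ± 2.22 with vehicle and 27 ± 7 with OPE.

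**Figure D2:**
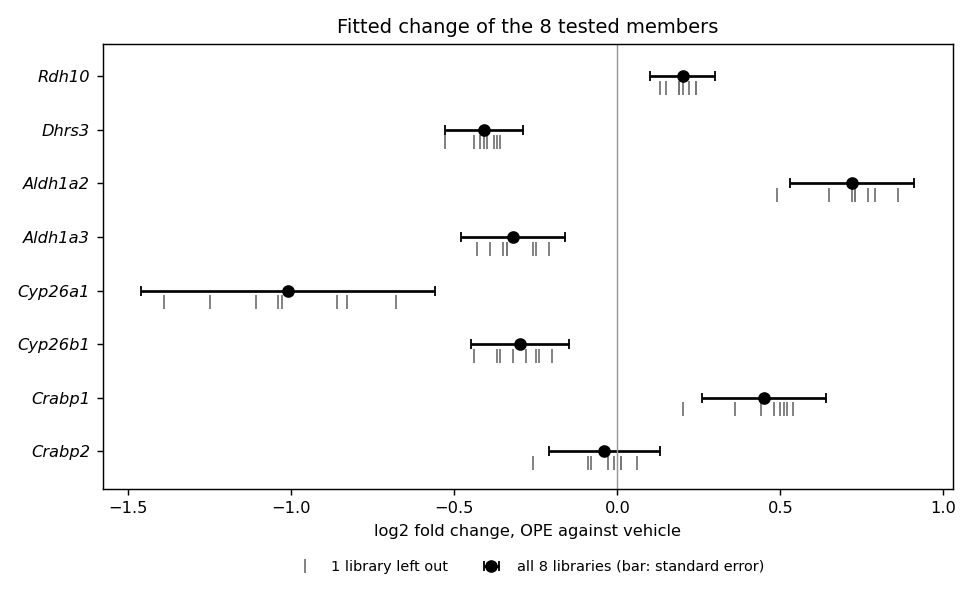
Log2 fold change of the 8 tested genes, OPE against vehicle, from the edgeR fit (point) with its standard error (bar); grey ticks are the values with each of the 8 libraries left out in turn. The ticks of Aldh1a2 run from 0.49 to 0.86 and those of Dhrs3 from -0.53 to -0.36, while those of Crabp2 lie on both sides of 0.

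Clearance rests with the cytochromes P450 of the CYP26 family, which hydroxylate retinoic acid. Cyp26b1 (chromosome 6, 84571414 to 84593908), the form of the limb mesenchyme, held 96.5 ± 0.718% of the family's FPKM with vehicle and 97.4 ± 1.93% with OPE. Its level was 124, 115, 107 and 95.9 CPM in vehicle 1 to 4 and 97.9, 114, 70.0 and 75.9 CPM in OPE 1 to 4. OPE 3 and OPE 4 lay under the vehicle range, and OPE 1 and OPE 2 lay inside it. The log2 fold change was -0.30 ± 0.15 (edgeR adjusted p = 0.426), and with 1 library left out it lay between -0.44 ± 0.14 (without OPE 2) and -0.20 ± 0.13 (without OPE 3). The gene is 4751 bases long in the table, and with the gene length trend of each library removed the value was -0.23 ± 0.13 (edgeR adjusted p = 0.342).

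Cyp26a1 (chromosome 19, 37697808 to 37701528) is the family member that retinoic acid induces most directly, through binding sites for its receptors beside the gene's start. It was low in every library, with 32, 26, 23 and 29 reads in vehicle 1 to 4 and 5, 6, 17 and 15 reads in OPE 1 to 4. OPE 1 and OPE 2 held few reads for libraries of their size. OPE 3, at 1.18 CPM, stood inside the vehicle range of 1.08 to 1.8 CPM, and OPE 4, at 0.998 CPM, just under it. Over all reads the depth-scaled ratio was 0.479, with an exact 95% binomial interval of 0.329 to 0.688 for counting error alone, which does not include the spread among the OPE libraries. For this gene the log2 fold change was -1.01 ± 0.45 (edgeR adjusted p = 0.367); it was -0.68 ± 0.39 without OPE 1 and -1.39 ± 0.45 without OPE 3. Cyp26c1 (chromosome 19, 37685581 to 37693398), its neighbour on the chromosome and a gene of the hindbrain and head, had 10 reads over the vehicle and 5 over the OPE libraries, with none in vehicle 3 or OPE 1. Its ratio of 0.613 (exact 95% binomial interval 0.164 to 1.97) showed no detectable difference at this depth.

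The promoter of Cyp26a1 is shown because its letters match the kind of repeat that retinoic acid receptors are known to bind, and that of Aldh1a2 beside it because it belongs to the synthesis gene with the smallest p. RefSeq promoter windows (GRCm38.p6, 250 bases before to 50 after an annotated start) were at hand for 7 of the genes, all but Aldh1a3, Rdh10 and Crabp2. They were searched on both strands for direct repeats of 2 half-sites, both in the same orientation. A half-site was AGGTCA, the usual form, or one of the variants: AGTTCA was one, another was GGTTCA and the last was GGGTCA. The half-sites had 5 or 2 bases between them. The repeat with 5 bases between was found in 1 of the 7 genes, Cyp26a1, and in 0.0974% of the 32851 windows of all genes; the repeat with 2 bases between was in none of the 7 and in 0.268% of all windows. No member held both repeats. The members are counted by gene and the percentages by window, which are unlike measures, since a gene can have several windows (3 for Dhrs3, 2 for Aldh1a1). The 100 bases before each start are given on the plus strand, which is the coding strand of both genes, with the repeat in capitals.
Cyp26a1, chr19:37697708-37697807: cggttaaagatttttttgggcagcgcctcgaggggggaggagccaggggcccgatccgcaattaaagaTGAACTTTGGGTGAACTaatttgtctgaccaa
Aldh1a2, chr9:71215689-71215788: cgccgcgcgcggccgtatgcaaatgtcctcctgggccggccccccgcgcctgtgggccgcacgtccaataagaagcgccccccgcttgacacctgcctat
The capitals occupy the stretch from 32 to 16 bases before the start of Cyp26a1 (chr19:37697776-37697792). Read on the other strand they give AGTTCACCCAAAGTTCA, the half-site AGTTCA at both ends with 5 bases between. The window of Aldh1a2 holds no such repeat. Over the 100 printed bases Aldh1a2 is richer in G and C, at 71% against 51% for Cyp26a1. These are matches of letters in a short window and no measure of binding.

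The cellular retinoic acid binding proteins carry the ligand inside the cell. CRABP1 is usually described as keeping retinoic acid in the cytoplasm and handing it to degrading enzymes, and CRABP2 as delivering it to receptors in the nucleus. Crabp1 (chromosome 9, 54764748 to 54773110) had 107, 140, 130 and 145 CPM with vehicle and 142, 155, 266 and 151 CPM with OPE. OPE 3 stood far above every other library, OPE 2 and OPE 4 stood narrowly above the vehicle range, and OPE 1 fell inside it. Crabp1 had a log2 fold change of 0.45 ± 0.19 (edgeR adjusted p = 0.339), and of 0.20 ± 0.10 without OPE 3 (adjusted p = 0.316). The gene is 802 bases long in the table, in the class of short genes that was high in OPE 3. With the gene length trend of each library removed, Crabp1 had a log2 fold change of 0.35 ± 0.11 (edgeR adjusted p = 0.0985).

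Crabp2 (chromosome 3, 87948666 to 87953376; 931 bases) had 97.0, 118, 97.6 and 111 CPM with vehicle and 79.9, 96.3, 146 and 90.3 CPM with OPE. OPE 3 was again the highest library, and the other OPE libraries lay under all 4 vehicle libraries. The log2 fold change was -0.04 ± 0.17 (edgeR adjusted p = 0.953). It was -0.26 ± 0.09 without OPE 3 (adjusted p = 0.176) and turned to 0.06 ± 0.16 without OPE 1. With the gene length trend of each library removed, the value of Crabp2 was -0.12 ± 0.09 (edgeR adjusted p = 0.511). The FPKM of Crabp1 over Crabp2 was 1.28, 1.37, 1.54 and 1.52 in vehicle 1 to 4 and 2.07, 1.87, 2.12 and 1.94 in OPE 1 to 4. All 4 OPE ratios lay above all 4 vehicle ratios, with means of 2 ± 0.115 and 1.43 ± 0.126 (SD, n = 4), and OPE 3 did not stand out. Of all tested genes, 4.73% gave a ratio to Crabp2 with the OPE libraries entirely above; the ratio was chosen after its values were seen and has no test.

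The ratio of the main synthesis gene to the main clearance gene, Aldh1a2 over Cyp26b1 in FPKM, was also looked at after the single values were known. It was 0.459, 0.592, 0.644 and 0.776 in vehicle 1 to 4 and 1.62, 0.972, 1.37 and 1.02 in OPE 1 to 4. The groups did not overlap, and the means were 0.618 ± 0.131 and 1.24 ± 0.307 (SD, n = 4). A ratio to Cyp26b1 with all OPE libraries above all vehicle libraries was found for 7.12% of tested genes. Since Aldh1a2 alone already had every OPE library above every vehicle library, the separation of this ratio adds little, and it has no test.

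**Figure D3:**
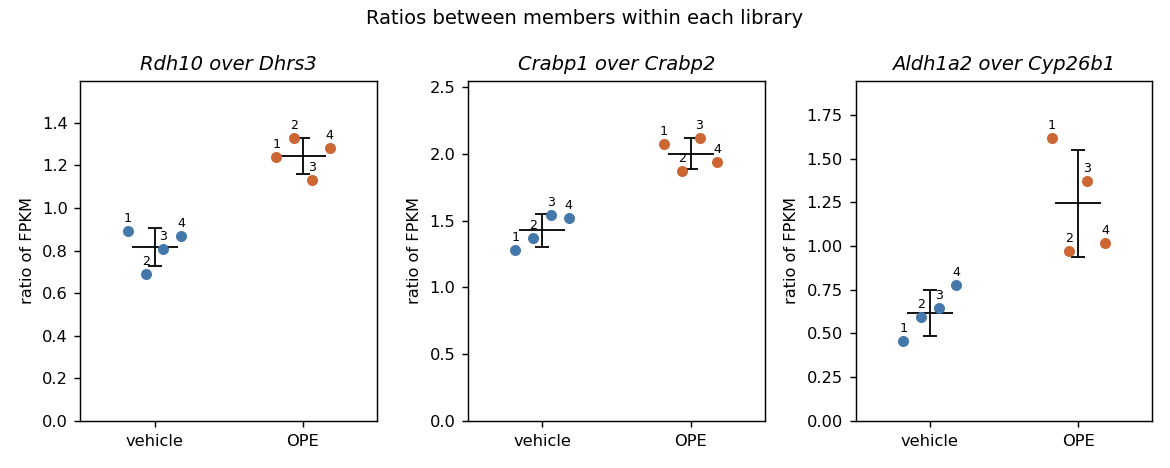
Ratio of FPKM between 2 members within each library, for Rdh10 over Dhrs3, Crabp1 over Crabp2 and Aldh1a2 over Cyp26b1, on axes from 0, with points numbered by replicate, the mean as a line and the standard deviation as a bar (n = 4 a group). In each panel the 4 OPE points lie above the 4 vehicle points. The ratios were chosen after the values were seen and have no test.

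Other genes that handle retinoids were read from a list of 35, of which 31 were in the table and 18 were tested. Over all genes tested 0.477% passed with edgeR. One passed with edgeR, higher with OPE: Rdh11 (chromosome 12), which reduces retinal to retinol, had 44.8, 47.3, 44.4 and 43.8 CPM with vehicle and 66.4, 64.8, 57.0 and 59.1 CPM with OPE. All OPE libraries stood above all vehicle libraries, as in 4.05% of genes tested. Rdh11 rose by 0.46 ± 0.09 on the log2 scale (edgeR adjusted p = 0.0493). Of the 8 fits that left out 1 library it passed in the fit without OPE 3 alone (edgeR adjusted p from 0.00987 to 0.178). In these 8 fits 7 to 308 of all genes tested passed, and the log2 fold change of Rdh11 lay between 0.41 and 0.49. Of the 18, 10 had a log2 fold change above 0 and 8 below, with a median of 0.07. The related retinal reductase gene Rdh14 gave 0.50 ± 0.13 (edgeR adjusted p = 0.133; 0.0468 with the gene length trend removed).

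Stra6, the membrane receptor that takes retinol into cells and a gene that retinoic acid induces, had 24.0, 23.2, 21.4 and 25.8 CPM with vehicle and 14.7, 19.9, 13.4 and 16.6 CPM with OPE. All OPE libraries lay under all vehicle libraries, as in 5.44% of genes tested. The log2 fold change was -0.55 ± 0.14 (edgeR adjusted p = 0.103), and DESeq2 gave an adjusted p of 0.0112. The gene overlaps Ccdc33 on the other strand, and its value is uncertain to that extent, since the sources used here do not say if reads were assigned by strand. None of the 10 members overlaps another gene counted in the table; Aldh1a2 overlaps the annotated pseudogene Gm48124 on the other strand. Dhrs7, a short-chain dehydrogenase gene, gave 0.44 ± 0.18 (edgeR adjusted p = 0.31).

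**Figure D4:**
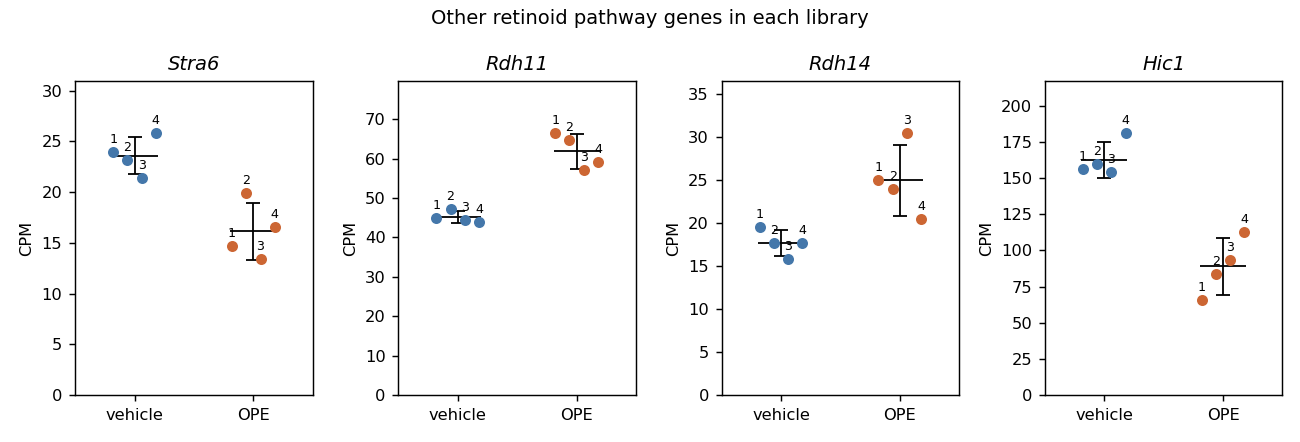
CPM of Stra6, Rdh11, Rdh14 and Hic1 in each library on axes from 0, with points numbered by replicate, the mean as a line and the standard deviation as a bar (n = 4 a group). The OPE points of Stra6 and Hic1 lie below the vehicle points, and those of Rdh11 and Rdh14 lie above them.

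Of 26 genes listed as responsive to retinoic acid, 22 were tested and 1 passed with edgeR, lower with OPE (0.477% of all genes tested passed). It was Hic1, a transcriptional repressor gene of mesenchymal cells, with 163 ± 12.7 CPM with vehicle and 88.8 ± 19.5 CPM with OPE (SD, n = 4). All OPE libraries lay under all vehicle libraries, as in 5.44% of genes tested. Hic1 fell by 0.88 ± 0.14 on the log2 scale (edgeR adjusted p = 0.0388). It did not pass without OPE 2 (edgeR adjusted p = 0.0808) or without vehicle 1, 2, 3 or 4 (edgeR adjusted p from 0.0961 to 0.119). In those fits 7 to 19 of all genes tested passed, and the log2 fold change of Hic1 lay between -0.91 and -0.83. The list's median was -0.04, with 10 genes above 0 and 12 below. Pbx3, a homeobox cofactor gene, and Hoxb4 gave 0.20 ± 0.09 and -0.67 ± 0.39 (edgeR adjusted p = 0.371 and 0.502). Hoxb4 was low, at 1.58 ± 0.615 CPM with vehicle and 0.993 ± 0.413 CPM with OPE (SD, n = 4). Stra6, described above with the retinoid supply genes, is in this list too. Of the 6 receptor genes none passed with edgeR, DESeq2 or limma-voom, and none had an unadjusted edgeR p under 0.05. Rarb, the receptor gene that retinoic acid itself induces, had 14.2 ± 0.904 CPM with vehicle and 16.1 ± 2.32 CPM with OPE, a log2 fold change of 0.19 ± 0.13 (edgeR adjusted p = 0.592). Rxrb, Rxra and Rara, of which the first 2 encode partners of the retinoic acid receptors, gave 0.14 ± 0.10, 0.09 ± 0.10 and 0.06 ± 0.09 (edgeR adjusted p = 0.592, 0.756 and 0.844).

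A list of 15 genes took in the mesenchyme between the digits, where Aldh1a2 is known to be active, and that at their tips. Of these genes 14 were tested and 1 was called by edgeR, against 0.477% of all genes tested. Bmp7, a bone morphogenetic protein gene, fell by 0.75 ± 0.08 on the log2 scale (edgeR adjusted p = 0.00539), and Hoxd13, a distal homeobox gene, gave 0.24 ± 0.10 (edgeR adjusted p = 0.32). Dkk1 and Wnt5a, a Wnt inhibitor and a Wnt ligand, gave -1.21 ± 0.34 and -0.26 ± 0.11 (edgeR adjusted p = 0.15 and 0.326). Dkk1 was low, at 4.62 ± 1.14 CPM with vehicle and 2.02 ± 1.14 CPM with OPE (SD, n = 4). Its OPE values lay under all its vehicle values, narrowly, as in 5.44% of genes tested. With DESeq2, 2 genes of the list passed, Bmp7 and Dkk1 (adjusted p = 0.0243 for Dkk1), against 3.45% of all genes. The list's median was -0.12.

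Marker lists of other cell types differed in how they moved between the groups. The summed CPM of 10 macrophage markers was 141 to 158 with vehicle and 27.4 to 66.2 with OPE, with 7 of the 10 lower past the threshold (Csf1r, Cx3cr1, Spi1, C1qa, C1qb, C1qc and Mrc1) and none at 0 in any library. That of 8 endothelial markers was 252 to 318 with vehicle and 121 to 228 with OPE. Of the 8, 7 had a log2 fold change below 0, 1 was lower past the edgeR threshold (Flt1) and 3 passed with DESeq2. The summed CPM of 6 perichondrium and osteoblast markers was 2970 to 3360 with vehicle and 2380 to 2560 with OPE. All 6 had a log2 fold change below 0, 2 were lower past the edgeR threshold (Alpl and Sp7) and 5 passed with DESeq2. Ibsp and Runx2 did not pass with edgeR and gave -3.33 ± 0.64 and -0.65 ± 0.14 (edgeR adjusted p = 0.0522 and 0.0776). Of all genes tested, 0.438% were lower past the edgeR threshold and 3.45% passed with DESeq2. OPE 1, which had the highest Aldh1a2 and the lowest Cyp26a1, was also lowest in the macrophage, endothelial and perichondrium sums. In the other marker lists OPE 1 was not the lowest library. The epidermis sum was lowest in OPE 4 (169 CPM) and the Schwann and melanoblast sum in OPE 3 (69.7 CPM). The muscle and tendon sums were lowest in OPE 2 (2220 and 259 CPM). The summed CPM of 6 limb mesenchyme markers was 1740 to 1960 with vehicle and 1810 to 1890 with OPE, and that of 8 chondrocyte markers 8540 to 10100 and 8450 to 9560. Erythroid sums were 898 to 1320 with vehicle and 1020 to 2430 with OPE, and epidermis sums 258 to 324 and 169 to 391. Schwann and melanoblast sums were 81.6 to 95.2 and 69.7 to 97.6, muscle sums 2770 to 3160 and 2220 to 3370, and tendon sums 326 to 358 and 259 to 332. No gene of these lists passed with edgeR. DESeq2 passed 2 of the 8 muscle markers and 1 of the 5 tendon markers, all lower with OPE. It passed none of the limb mesenchyme, chondrocyte, erythroid, epidermis or Schwann and melanoblast markers. The part of these cell types in the values of the retinoid genes was not tested.

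By the rule for likeness, the profile of Aldh1a2 over the 8 libraries was set against 10401 genes with at least 10 CPM on average. The nearest were Cars, a cysteinyl-tRNA synthetase gene, Pycr1, a gene of proline synthesis, and Lss, the lanosterol synthase gene of cholesterol synthesis, with root mean square differences of 0.09, 0.14 and 0.14 in centred log2 CPM against a median of 0.47. In each of the 3, as in Aldh1a2, OPE 1 was the highest library, for example 156 CPM for Cars against 82.7 to 97.1 in the other OPE and 60.5 to 69.3 in the vehicle libraries. Their log2 fold changes were 0.71 ± 0.17, 0.60 ± 0.14 and 0.62 ± 0.14 (edgeR adjusted p = 0.101, 0.0951 and 0.0828). The 3 were picked for nearness over all 8 libraries, both groups included. Their high OPE 1 and their fold changes near that of Aldh1a2 follow from that pick and are no separate result.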

How the data were processed

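RNA of 8 libraries of cultured forelimb buds was measured, 4 per group, assigned by the titles in the labels. Tools listed, without roles, in the submitters' processing notes are STAR 2.5, HTSeq 0.6.1, CASAVA 1.8 and DESeq2 (version given as 2), with the build mm10. The authors deposited raw read counts per gene, signal values (counts divided by 1 size factor per library), FPKM values, and their own log2 fold changes and p-values in 1 table, per the file headers. For the tests, edgeR 4.0.16 under R 4.3.3 was run on the deposited counts (TMM, filterByExpr, robust quasi-likelihood fit, two-sided, group as the only term). Alternatives used DESeq2 1.42.0, limma 3.58.1 and the settings in the closing section. Logged CPM has a prior count of 2; the standard error is the fold change over the root of F. No library repeated another of its group (5.03 was the lowest chi-square over its degrees of freedom). Members, lists and tests were chosen with earlier results of these data known. All 10 members are named whatever their values; of the retinoid supply, receptor, responsive and interdigital lists, the genes past the threshold and the 4 of smallest p are named, and cell type marker lists are given as sums, counts and genes past the threshold; the 3 genes nearest in profile to the member of smallest p are also named. Outside these rules, Ibsp and Runx2 are named, as are the limb markers of the tissue check. The steps were tested on simulated data.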

Additional observations from a re-analysis of the deposited data

Results flagged for a closer look

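The level of Crabp1 in OPE 3, 266 CPM, stood apart from the other 3 OPE libraries, which lay between 142 and 155 CPM; the gap to the nearest of them took up 0.899 of the group's range. It was the 1 value picked out among 28 sets of 4 libraries (14 genes in the vehicle and the OPE group), and chance picks out about 1 in 20. The median of short genes was also highest in OPE 3.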

How the results depend on the processing

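The count of 74 genes past the threshold was 536 with the DESeq2 test (178 higher and 358 lower), 322 with the gene length trend removed, 131 with library totals, 136 with no filter and 112 with the newer edgeR method, which was chosen after seeing the data. Leaving out each library in turn gave 7 to 308. Of the members, 0 passed, and 2 did with DESeq2, 1 without both OPE 1 and OPE 3, and 0 to 1 with each library left out. Of the retinoid supply genes 1 passed, against 3 with DESeq2, 2 with the length trend removed, 0 to 1 with each library left out, and 0 with library totals, no filter, a mean of at least 1 CPM or upper quartile factors. Of the responsive genes 1 passed, against 2 with DESeq2 and 0 to 1 with each library left out. Stra6 is in both the supply and the responsive list and is among the DESeq2 calls of each. DESeq2 passed 3.45% of all genes. Crabp2 changed sign without OPE 1 (0.06), without OPE 4 (0.01) and without vehicle 2 (0.01), within a range of -0.26 to 0.06 over the libraries left out; the cause was not tested. The other 7 tested members kept their direction in all 19 alternatives. With the replicate number as a block 62 genes passed, 0 of the members and 0 of the supply genes, where Rdh11 had an adjusted p of 0.0747. Deviations of same-numbered libraries correlated at 0.309, 0.0818, 0.0126 and 0.0918, and 4 of 8 libraries correlated best with their own number; the labels do not say what a number stands for, and a shared origin of same-numbered libraries was neither shown nor excluded. Depth limits Aldh1a1 and Cyp26c1, whose counting intervals include a ratio of 1.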
